A study of Mus musculus with 6 samples.

Results

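The genes described here are markers of enteric glia and of interstitial cells of Cajal, chosen by their symbols: S100b, Sox10 and Ngfr for glia, and Kit, Ano1 and Etv1 for Cajal cells. Of the 6 symbols, 5 matched a row of the 14228 genes listed, and Sox10 was not analysed here. RNA was measured in 3 libraries of cancer-associated fibroblasts (CAF) and 3 libraries of normal fibroblasts (normal), all from the stomachs of mice aged 8 weeks that carry the iLgr5;GLI2A transgenes, in which an active form of the Hedgehog transcription factor GLI2 is induced in cells that express the stem cell gene Lgr5. CAF mice received tamoxifen in corn oil by gavage on 5 days, doxycycline chow for 3 weeks and doxycycline in sucrose water on the first 3 of those days. Control mice carried the same transgenes and received corn oil alone, so what tamoxifen and doxycycline did cannot be told apart from what the cancer did. CAF libraries 1, 2 and 3 held cells of 1, 2 and 2 mice, and normal libraries 1, 2 and 3 held cells of 1, 1 and 2 mice. Each library was thus a separate mouse or pair of mice, and p-values measure the spread between these libraries. Cells were sorted as live and podoplanin-positive, after those with CD31, CD45 or EpCAM were removed, and no marker of glia or of Cajal cells was part of the gate.

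Enteric glia are the supporting cells of the gut's own nervous system. They derive from the neural crest and surround neurons in the ganglia and along nerve fibres of the muscle and mucosa. Interstitial cells of Cajal are mesenchymal pacemaker cells that lie between nerves and smooth muscle and generate the slow electrical waves of the stomach, and they depend on the receptor KIT. None of these marker genes belongs to its cell type alone: S100b is also known in fat and cartilage cells, Ngfr in several stromal cells, Kit in mast cells and melanocytes, and Ano1 in glandular epithelium. In sorted bulk samples fewer cells of a type and less RNA per cell cannot be told apart.

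The glial genes S100b and Ngfr were both higher in all 3 CAF libraries than in any normal library, and the Cajal cell genes Kit and Ano1 overlapped between the groups. Of all genes tested, 10.6% separated the groups with all CAF libraries higher, and 19.9% separated them in either direction. S100b rose 33.9-fold in CAF libraries, at 68.9 ± 33.4 CPM against 2.37 ± 1.47 CPM in normal libraries (SD, n = 3 each; CPM is counts per 1000000 counts of the scaled library). Ngfr averaged 70.7 ± 63.0 CPM in CAF libraries and 4.74 ± 2.52 CPM in normal libraries, 15.5-fold, and missed the threshold. Of the 4 members tested, 1 was called by edgeR at an adjusted p of 0.05, where 1.10% of the 10148 genes tested were called in either direction, 0.897% higher and 0.207% lower in CAF. Etv1 was below the filter on low counts and was not tested.

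The upstream sequences of S100b and Ngfr are printed because these are the tested members that stood apart between the groups. Etv1 also stood apart, with all CAF libraries higher, but on few counts and below the filter. RefSeq sequence of GRCm38.p6 was found for 5 of 5 members, and the 250 bases before the start annotated by RefSeq are given 5′ to 3′ on the gene's strand, in lower case. That start differs from the GENCODE start used for the gene positions, so the last bases of the Ngfr window, with its last GC box, lie inside the gene as GENCODE places it. Capitals mark the CCAAT box (letters CCAAT) in S100b and the GC box (letters GGGCGG) in Ngfr, each on either strand.
S100b, chr10:76253586-76253835, plus strand: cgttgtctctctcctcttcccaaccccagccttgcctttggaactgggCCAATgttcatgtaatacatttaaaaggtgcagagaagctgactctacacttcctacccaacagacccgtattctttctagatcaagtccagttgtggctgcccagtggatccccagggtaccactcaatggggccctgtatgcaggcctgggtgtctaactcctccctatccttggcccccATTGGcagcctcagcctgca
Ngfr, chr11:95587699-95587948, minus strand: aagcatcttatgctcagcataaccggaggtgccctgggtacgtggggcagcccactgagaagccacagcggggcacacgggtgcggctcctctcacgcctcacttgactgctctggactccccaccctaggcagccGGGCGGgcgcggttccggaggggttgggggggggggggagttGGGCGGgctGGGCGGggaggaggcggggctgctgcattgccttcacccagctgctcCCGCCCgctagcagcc

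The S100b window held 2 CCAAT boxes and no GC box, and the Ngfr window held 4 GC boxes and no CCAAT box. Their GC content was 53.6% in S100b and 70.4% in Ngfr, against a median of 52.0% over 27025 upstream windows of the same length. A GC box was present in 32.9% of those windows and a CCAAT box in 34.5%. A SOX motif (ACAAAG), which 16.5% of windows held, and an AP-1 motif (TGANTCA), which 6.87% held, were in neither window. An E-box (CANNTG), held by 66% of windows, occurred once in S100b, and 2 occurred in Ngfr. Motifs were searched on both strands and these matches are a description of the letters, not of binding.

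Depth limited what low genes could show. The total count ranged from 644522 to 6422568 in CAF libraries and from 768420 to 3259644 in normal libraries, so that 1 count was worth between 0.135 and 1.46 CPM in CAF libraries and between 0.408 and 1.27 CPM in normal libraries. Normal library 3 stood apart from the other normal libraries in chief, neck, parietal and endocrine cell genes. Its gastric gland genes (15 genes of pit, neck, chief, parietal and endocrine cells) summed to 36843 CPM, against 222789 and 149824 CPM in normal libraries 1 and 2, and all CAF libraries lay between 4900 and 7336 CPM. Most of that sum in normal libraries 1 and 2 was Pgc, a pepsinogen of chief cells, at 159236 and 94151 CPM, against 11196 CPM in normal library 3. Pit cell genes did not set it apart in that way: Gkn1 was at 4416, 1975 and 5331 CPM and Tff1 at 14945, 9393 and 14842 CPM in normal libraries 1, 2 and 3. A general epithelial list of 8 genes, chosen after values were seen, summed to 2797, 1128 and 1131 CPM in CAF libraries 1, 2 and 3 and to 3843, 1956 and 582 CPM in normal libraries 1, 2 and 3. Epcam, whose protein was used to remove epithelial cells in the sort, was at 233, 127 and 114 CPM in CAF libraries and at 150, 78.5 and 13.8 CPM in normal libraries.

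**Figure D1:**
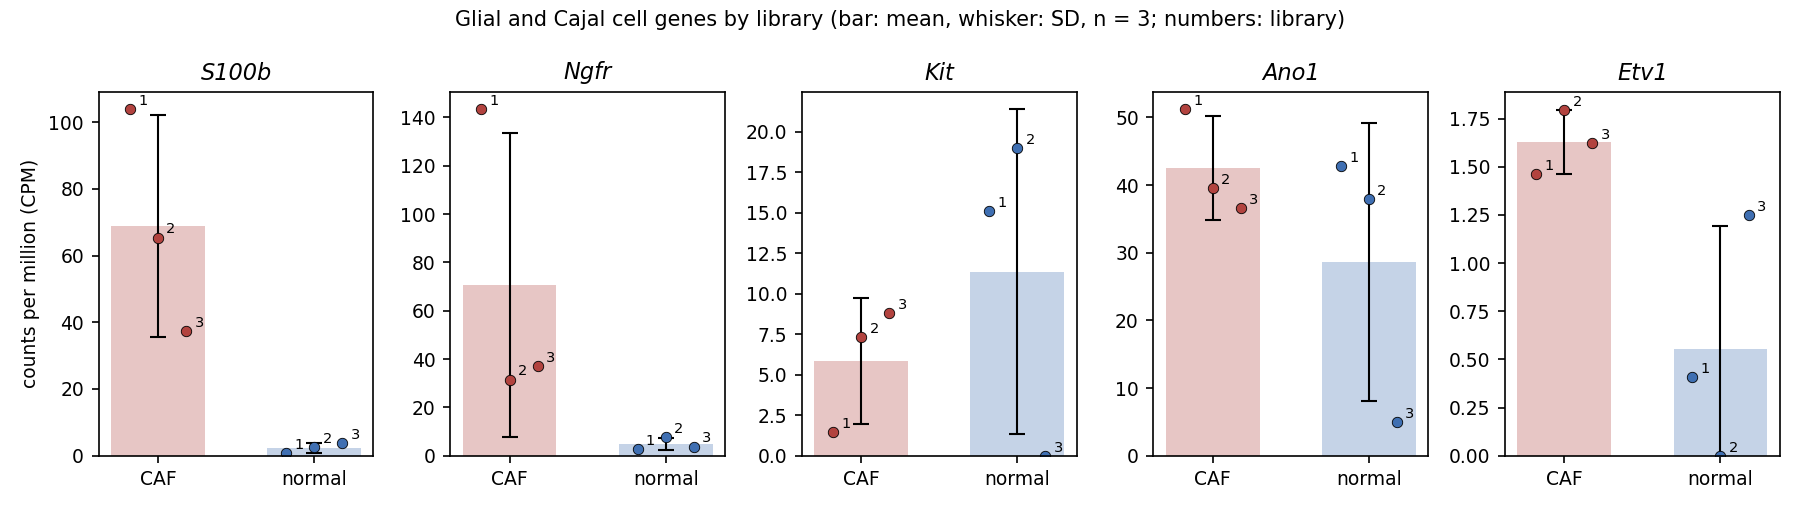
Level in CPM (linear axis from 0) of the 5 genes in each library, CAF in red and normal in blue, with bars for means and whiskers for SD (n = 3, cut off at 0). S100b lies between 37.3 and 104 CPM in CAF libraries and at most at 3.75 CPM in normal libraries, and Kit and Ano1 overlap between the groups, with their lowest normal value in library 3.

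S100b encodes a small calcium-binding protein of the S100 family that is abundant in glia and is used to mark them in the gut wall. The gene lies on mm10 chromosome 10, 76253853 to 76261159, on the plus strand, and the exons of this protein-coding gene cover 1484 bases (GENCODE M21 annotation of GRCm38, the assembly behind mm10). CAF libraries 1, 2 and 3 had 71, 474 and 276 counts of S100b, or 104, 65.4 and 37.3 CPM. Normal libraries 1, 2 and 3 had 2, 2 and 3 counts, or 0.816, 2.53 and 3.75 CPM. The lowest CAF library was above the highest normal library, a separation that 10.6% of the genes tested showed in that direction and 19.9% showed in either direction, and CAF library 1, the shallowest, was the highest. The log2 fold change was 5.08 ± 0.69 (SE; adjusted p = 0.0247, edgeR quasi-likelihood F test, Benjamini-Hochberg over all genes tested).

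The S100b call was lost in 4 of the 6 fits that left out 1 library, while the fold stayed between 21.0 and 47.5. Adjusted p was 0.0521 without CAF library 1, 0.0917 without CAF library 2, 0.155 without normal library 1 and 0.102 without normal library 2 (edgeR). The call was also lost with limma-voom in place of edgeR (adjusted p = 0.0659). With edgeR it was 0.0405 without CAF library 3 and 0.00995 without normal library 3. The normal counts sum to 7 and the CAF counts to 821, and the pooled rate ratio was 30.9 with an exact 95% interval of 14.9 to 77.2, which covers counting error only. S100b passed the filter on low counts through its CAF libraries, as Ngfr did, so passing the filter is no evidence by itself. The gene Dip2a lies on the opposite strand and overlaps the S100b locus without sharing an exon base, and its level was 11.7, 17.8 and 16.6 CPM in CAF libraries and 9.39, 16.5 and 12.5 CPM in normal libraries.

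Ngfr encodes p75NTR, the low-affinity receptor for all neurotrophins, which marks neural crest cells and many glia (chromosome 11, 95568818 to 95587735, minus strand). Its counts were 98, 228 and 275 in CAF libraries 1, 2 and 3, or 143, 31.5 and 37.2 CPM. Normal libraries 1, 2 and 3 had 7, 6 and 3 counts, or 2.86, 7.60 and 3.75 CPM. All CAF libraries were above all normal libraries, as 10.6% of genes tested were, and CAF library 1 was the highest, as it was for S100b. The log2 fold change of 3.95 ± 0.79 (SE) did not pass (adjusted p = 0.0638 by edgeR). Without CAF library 1 the fold was 7.81 (adjusted p = 0.0747 by edgeR), against 15.5 with it, and without normal library 3 the log2 fold change was 3.81 (adjusted p = 0.0563 by edgeR).

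The authors' deposited table, made from the same counts, lists log2 fold changes of 5.07 for S100b (adjusted p = 1.43e-07) and 3.93 for Ngfr (adjusted p = 0.000141), both below 0.05. Of all genes in the authors' deposited table, a share of 6.37% was below that level in either direction, and 2.76% was below it and higher in CAF. In the authors' deposited table Kit, Ano1 and Etv1 had adjusted p-values of 0.831, 0.854 and 0.738.

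**Figure D2:**
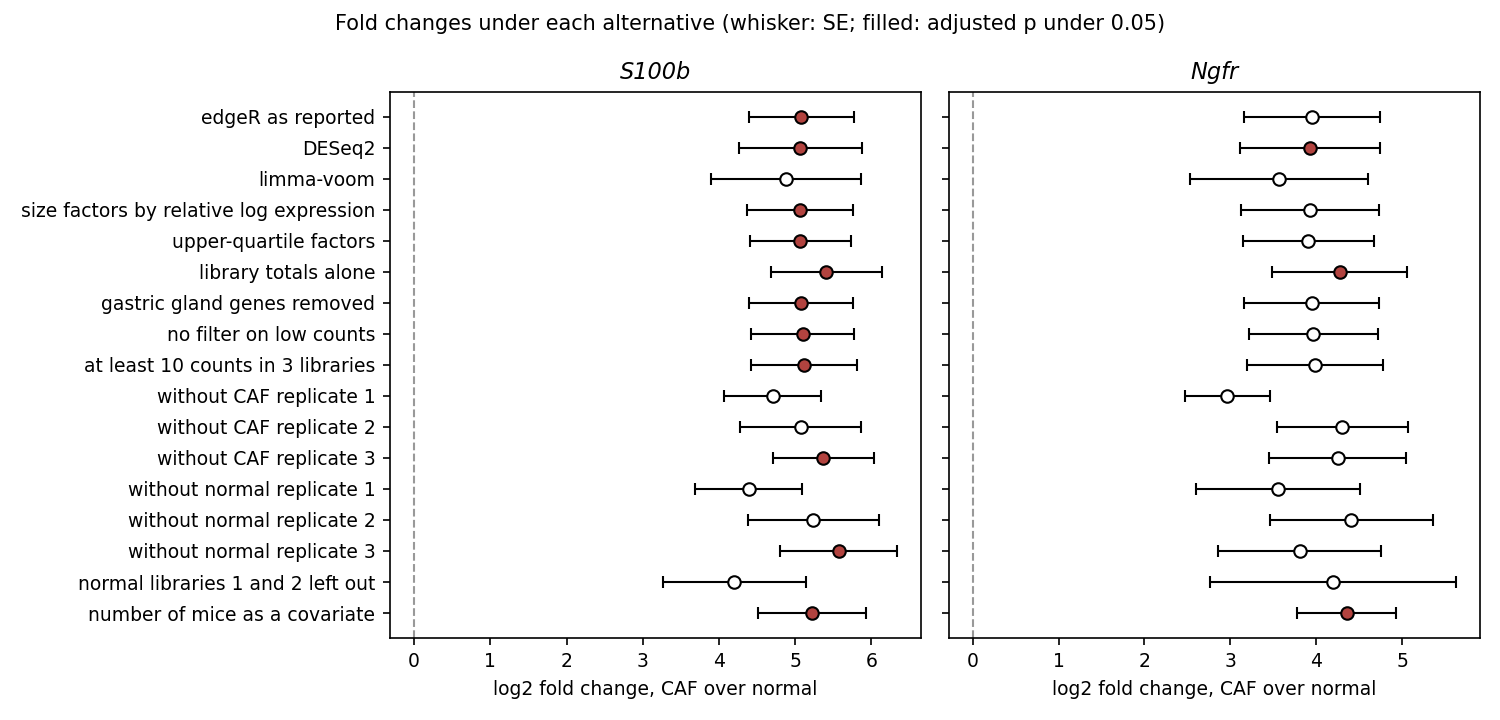
Log2 fold changes, CAF over normal, of S100b and Ngfr as reported and under each alternative, with whiskers for SE and filled points for adjusted p under 0.05. S100b lies between 4.20 and 5.57 and Ngfr between 2.97 and 4.41, above 0 in each fit, while the side of the threshold changes between fits.

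Kit encodes the receptor tyrosine kinase for stem cell factor, which interstitial cells of Cajal need for their development and upkeep (chromosome 5, 75574916 to 75656722, plus strand). CAF libraries 1, 2 and 3 had 1, 53 and 65 counts, or 1.46, 7.31 and 8.79 CPM. Normal libraries 1, 2 and 3 had 37, 15 and 0 counts, or 15.1, 19.0 and 0 CPM, where a count of 0 in normal library 3 allows a level of up to 3.75 CPM (3 counts). Normal libraries 1 and 2 were above all CAF libraries and normal library 3 had no count, so the groups overlapped, while CAF library 1 with its 1 count and normal library 3 cannot be ordered at this depth. The log2 fold change was -0.83 ± 0.98 (SE; adjusted p = 0.767 by edgeR), with a standard error larger than the change itself. Without normal library 3 it was -1.40 ± 0.62 and still did not pass (adjusted p = 0.234 by edgeR), a fold of 0.379 against 0.564 with it.

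Ano1 encodes a calcium-activated chloride channel that carries the pacemaker current of Cajal cells and is their most used marker beside KIT (chromosome 7, 144588549 to 144751974, minus strand). It had 35, 287 and 271 counts in CAF libraries 1, 2 and 3, or 51.2, 39.6 and 36.7 CPM. Normal libraries 1, 2 and 3 had 105, 30 and 4 counts, or 42.8, 38.0 and 5.00 CPM. Of the 6 libraries, 5 lay between 36.7 and 51.2 CPM and normal library 3 was the exception. The log2 fold change of 0.53 ± 0.63 (SE) did not pass (adjusted p = 0.771 by edgeR). Without normal library 3 its sign turned, to -0.022 ± 0.30 (adjusted p = 0.979 by edgeR).

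Kit and Ano1 were both lowest in normal library 3 among normal libraries, the library in which the gastric gland and general epithelial lists were also lowest. In CAF library 1, where the general epithelial list was highest of the CAF libraries, Kit was lowest and Ano1 was highest of the CAF libraries. The genes of that list did not move together. Grhl2 (1.46, 5.80 and 5.82 CPM in CAF libraries 1, 2 and 3) and Esrp1 (13.2, 24.6 and 19.5 CPM) were lowest in CAF library 1, like Kit. All other genes of the list were highest there. The part of epithelial RNA in either gene's level was not tested.

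Etv1 encodes an ETS transcription factor that is expressed in Cajal cells and acts with KIT in tumours of that lineage (chromosome 12, 38779380 to 38870484, plus strand). It had 1, 13 and 12 counts in CAF libraries 1, 2 and 3, or 1.46, 1.79 and 1.62 CPM. Normal libraries 1, 2 and 3 had 1, 0 and 1 counts, or 0.408, 0 and 1.25 CPM. All CAF libraries were above all normal libraries, but CAF library 1 and normal libraries 1 and 3 each rest on 1 count. With 26 counts over CAF and 2 over normal libraries, the pooled rate ratio was 3.43 with an exact 95% interval of 0.858 to 29.8, which covers counting error only. A difference in Etv1 was not detectable at this depth.

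By their pattern over the 6 libraries, S100b and Ngfr were the most alike of the members, and Kit and Ano1 came next. Likeness was measured as the root-mean-square difference of log2 CPM (prior count 2) after each gene was centred on its own mean, so that smaller values are more alike. S100b and Ngfr differed by 0.83 and Kit and Ano1 by 1.20 on this log2 scale. Ano1 differed from Ngfr by 1.65 and from S100b by 2.25, and Kit differed from Ngfr by 2.73 and from S100b by 3.24. These values describe 6 libraries of 2 groups and carry no test.

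Among 9340 other named genes with a mean of at least 20 counts, the closest to S100b were Grem1, a secreted BMP antagonist (0.31), the kininogen gene Kng2 (0.49) and the kinesin-family gene Kif26a (0.50). Grem1 was at 612, 354 and 169 CPM in CAF libraries 1, 2 and 3 and at 5.71, 10.1 and 13.8 CPM in normal libraries 1, 2 and 3. Like S100b, Grem1 was highest in CAF library 1, a likeness that follows from how it was chosen. The order of the normal libraries is not resolved for S100b, which had 2, 2 and 3 counts there. The closest to Ngfr were the transcription factor gene Sox11 (0.35), the secreted Wnt inhibitor Sfrp5 (0.39) and Prss12, the serine protease neurotrypsin (0.47). Sfrp5 was at 151, 46.2 and 45.9 CPM in CAF libraries and at 2.86, 5.07 and 2.50 CPM in normal libraries. CAF library 1 was far above the rest, which likewise follows from the choice of Sfrp5 by its likeness to Ngfr.

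The closest to Kit were Grhl2, a transcription factor of epithelia (0.24), the kinase gene Ripk4 (0.28) and Spryd4 (0.33). Grhl2 is also on the general epithelial list. Grhl2 had 1, 42 and 43 counts in CAF libraries 1, 2 and 3 and 42, 12 and 0 counts in normal libraries 1, 2 and 3. The same libraries as for Kit, CAF library 1 and normal library 3, were at or near 0, a likeness that follows from how Grhl2 was chosen. The closest to Ano1 were Gon7 (0.14), Spag5, a protein of the mitotic spindle (0.21), and Ckap2l, another spindle protein (0.21). Spag5 was at 11.7, 8.83 and 11.5 CPM in CAF libraries and at 9.79, 10.1 and 1.25 CPM in normal libraries. Its lowest value was again in normal library 3, which also follows from the choice by pattern. Gon7, Spag5 and Ckap2l each had 1 count in normal library 3. Etv1 averaged under 20 counts and was not compared in this way.

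No other enteric glial marker tested passed the threshold. Of 18 genes on a wider glial list, 11 had values and 9 were tested, with 0 called by edgeR, 3 at an unadjusted p under 0.05, and 0 by DESeq2 or limma-voom. Their median log2 fold change was -0.56, against 0.06 over all genes tested, and 4 were positive and 5 negative. The tweety-family gene Ttyh1, a membrane protein of glia, was higher in all CAF libraries than in any normal library without passing (log2 fold change 2.37, adjusted p = 0.205 by edgeR). Gfap, Fabp7, Foxd3 and Cdh19 were not analysed here. The higher S100b and Ngfr of the CAF libraries thus stood beside a wider glial list of mixed direction whose summed level overlapped between the groups. The label glia is therefore used here for the genes and not for the cells. Much of that sum was 1 gene, Entpd2, at 1008 of 1097 CPM in normal library 3 and 362 of 582 CPM in CAF library 3.

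On the wider glial list, the genes with the highest CPM (which here is not per length) were Entpd2, an ectonucleotidase of glia and of some fibroblasts, Sox2, a transcription factor of glial progenitors and of gastric epithelium, and the sodium channel gene Scn7a. Entpd2 was at 126, 250 and 362 CPM in CAF libraries and at 229, 149 and 1008 CPM in normal libraries, with normal library 3 far above the others. Sox2 was at 90.7, 53.7 and 42.2 CPM in CAF libraries and at 22.9, 25.3 and 1.25 CPM in normal libraries (log2 fold change 1.85, adjusted p = 0.292 by edgeR). Scn7a ranged from 1.46 to 90.8 CPM in CAF libraries and from 3.67 to 35.5 CPM in normal libraries. Of these genes, Sox2 separated the groups and Entpd2 and Scn7a overlapped. Without normal library 3, the myelin gene Mbp and the adhesion gene L1cam were called lower in CAF (log2 fold changes -2.01 and -3.38, adjusted p = 0.046 and 0.0343 by edgeR). That fit called 1193 of 11888 genes tested, against 112 of 10148 as reported. Against normal library 3 by itself, the median of the wider glial list was 0.83.

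**Figure D3:**
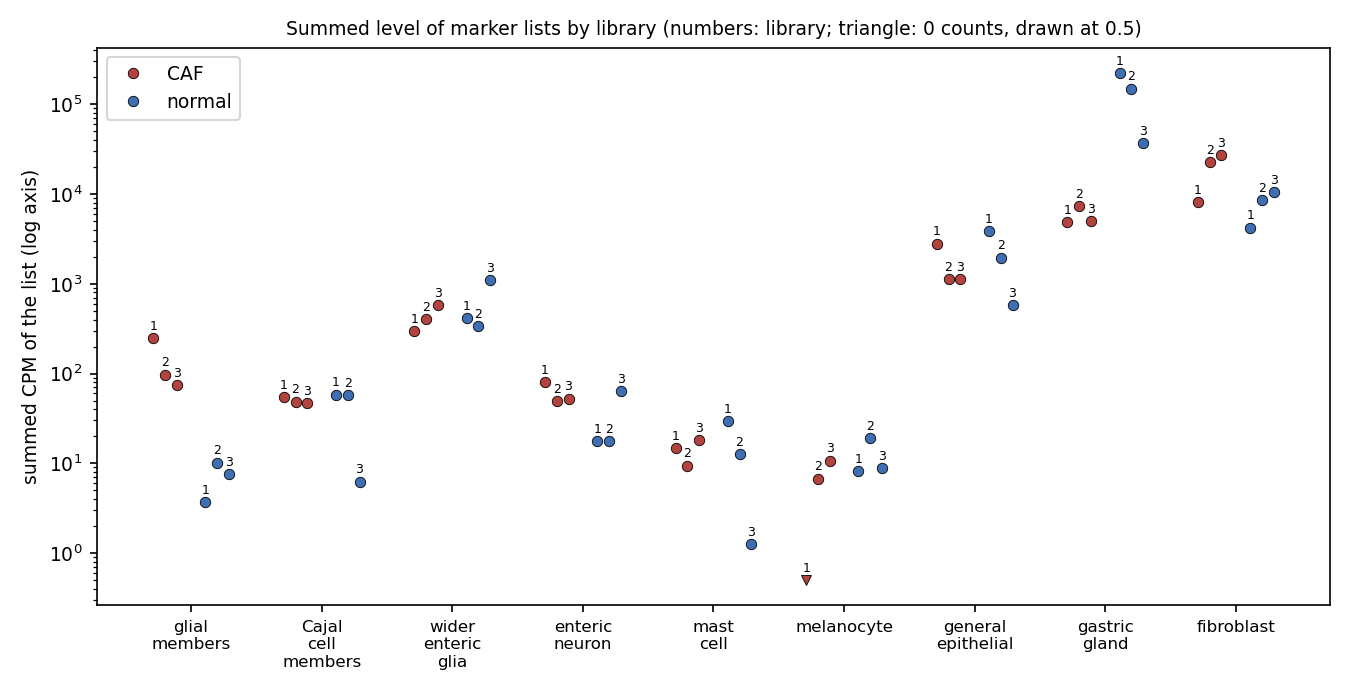
Summed CPM (log axis) of marker lists in each library, CAF in red and normal in blue, with library numbers beside the points and a triangle at 0.5 for a sum of 0. The glial pair S100b and Ngfr lies at 74.5 to 247 CPM in CAF and 3.67 to 10.1 CPM in normal libraries, and the wider glial list at 296 to 582 CPM in CAF and 338 to 1097 CPM in normal libraries. The highest of these sums, in normal library 3, is mostly Entpd2 (1008 CPM).

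Marker lists of other cells that can express these genes were read beside them. Enteric neuron genes summed to 80.5, 49.4 and 52.6 CPM over 10 genes in CAF libraries and to 17.5, 17.7 and 63.8 CPM in normal libraries, and the 2 tested, Tubb3 and Uchl1, did not pass (adjusted p = 0.468 and 0.435 by edgeR). The mast cell list summed to 9.38 to 18.0 CPM in CAF and 1.25 to 29.4 CPM in normal libraries over 4 of its 12 genes. Most of that sum was Hdc in each library other than CAF library 3. Hdc was at 14.6, 8.69 and 3.65 CPM in CAF and 25.7, 10.1 and 1.25 CPM in normal libraries. Mast cells carry CD45, a protein used to remove cells in the sort. Its gene Ptprc had 0, 40 and 10 counts in CAF libraries 1, 2 and 3 and 0, 3 and 0 counts in normal libraries 1, 2 and 3. The part of mast cells in the level of Kit was not tested. Mcpt2 had 0, 1 and 64 counts in CAF and 0 in each normal library. The melanocyte list summed to at most 10.7 CPM in CAF and 19.0 CPM in normal libraries over 3 of its 6 genes. The fibroblast list (8 genes) summed to 8091, 22743 and 27295 CPM in CAF libraries 1, 2 and 3 and to 4214, 8619 and 10583 CPM in normal libraries 1, 2 and 3. CAF library 1, highest for S100b, Ngfr and Ano1, was thus lowest of the CAF libraries for fibroblast genes, and the part of cell mixture in these levels was not tested.

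Of the other markers of Cajal cells, Thbs4 stood out. Of 12 genes on a wider list, 9 had values, 7 were tested and 1 was called, with 2 at an unadjusted p under 0.05 and a median log2 fold change of 1.06 against 0.06 over all genes tested. Thbs4 encodes thrombospondin-4, a matrix glycoprotein that marks gut Cajal cells and is also made by fibroblasts and in tendon. It had 73, 891 and 660 counts in CAF libraries, or 107, 123 and 89.3 CPM, and 27, 8 and 21 counts in normal libraries, where it stayed between 10.1 and 26.3 CPM. The groups did not overlap and Thbs4 rose 6.88-fold in CAF libraries (edgeR adjusted p = 0.039). The call was lost without any of the CAF libraries and without normal library 1 or 2, with adjusted p from 0.0794 to 0.213 and a fold of 5.76 to 7.48, and it was also lost with a term for mice per library (adjusted p = 0.0555 by edgeR). Lix1, another Cajal cell marker, had 1, 5 and 7 counts in CAF and 2, 2 and 1 in normal libraries and was below the filter. The chloride importer gene Slc12a2 loads Cajal cells for the ANO1 current. It was at 19.0, 43.2 and 60.5 CPM in CAF and 53.5, 83.6 and 5.00 CPM in normal libraries. Its lowest value was in normal library 3, as for Kit and Ano1, but the wider list as a whole did not share this. The 9 genes with values summed to 107, 151 and 190 CPM in normal libraries 1, 2 and 3. Of these sums, Gucy1b1 made up 16.3, 8.87 and 106 CPM.

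Smooth muscle surrounds Cajal cells in the stomach wall and shares their mesenchymal origin. Of 8 smooth muscle genes, 6 were tested and 1 was called by edgeR. That gene was Myh11, the smooth muscle myosin heavy chain. It fell in CAF libraries to 20.5, 47.9 and 30.6 CPM, against 184, 134 and 141 CPM in normal libraries (log2 fold change -2.19, adjusted p = 0.0486 by edgeR). The list did not fall with it: 3 log2 fold changes were positive and 3 negative, with a median of 0.36. Actg2, another gene of the list, was higher in all CAF libraries than in any normal library. It did not pass by edgeR (log2 fold change 1.68, adjusted p = 0.0953). DESeq2 called Myh11 lower (adjusted p = 3.5e-05) and Actg2 higher (adjusted p = 0.00693). Of the fits that left out 1 library, Myh11 passed only in the one without normal library 3, and it also missed the threshold with upper-quartile factors (adjusted p = 0.061), library totals alone (0.0634), at least 10 counts in 3 libraries (0.0545) and a term for mice per library (0.0848), all by edgeR. The smooth muscle list as a whole summed to 2759, 1948 and 919 CPM in CAF libraries and to 1287, 702 and 1472 CPM in normal libraries, so it overlapped, as Kit and Ano1 did.

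**Figure D4:**
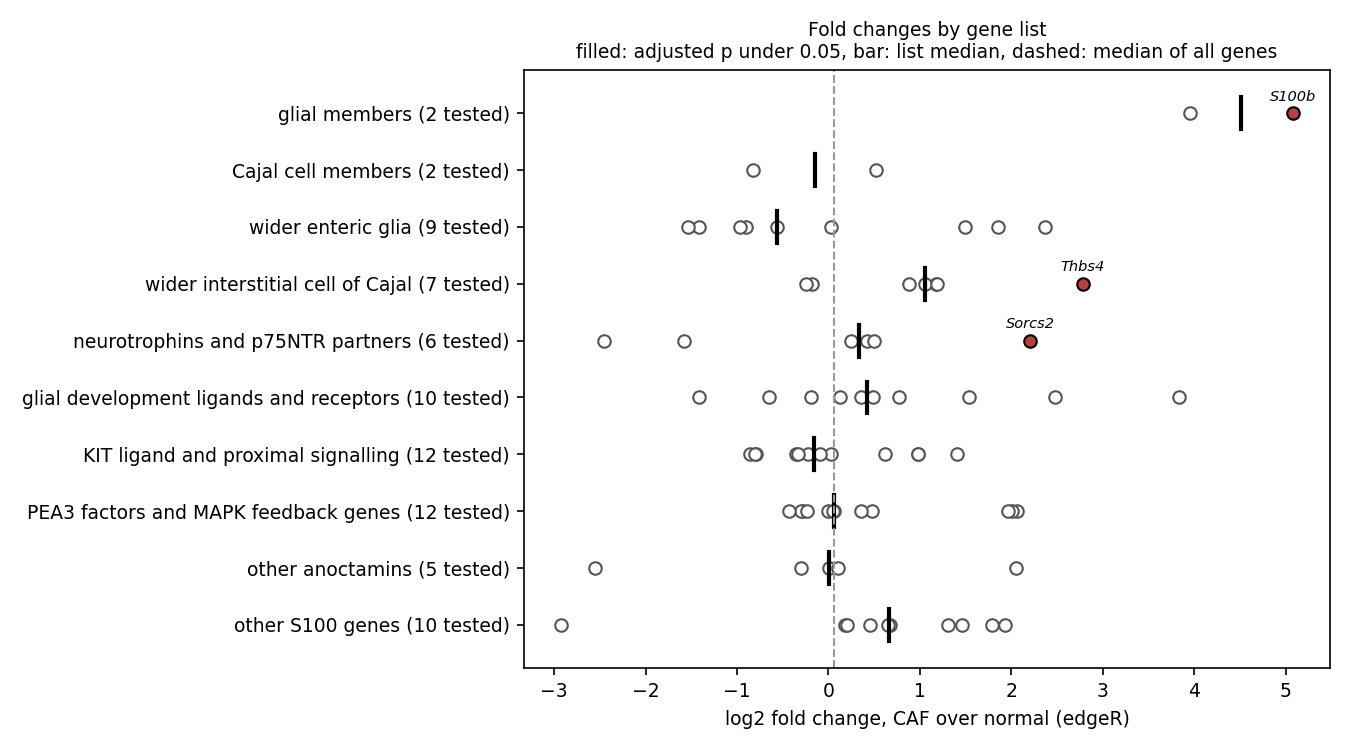
Log2 fold changes, CAF over normal, of every tested gene in the member groups and 8 lists of related genes, with filled points for adjusted p under 0.05, bars for list medians and a dashed line at the median of all genes tested (0.06). S100b, Thbs4 and Sorcs2 are the called genes. Ngfr, the other glial member tested, lies right of the dashed line, and the genes not called in the remaining lists spread to either side of it.

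Of the neurotrophin genes and partners of p75NTR, the product of Ngfr, 1 was called. Neurotrophins are secreted growth factors of nerves that bind p75NTR and the TRK receptors, and p75NTR pairs with the sortilin family to bind their precursor forms. Of 13 genes of this list, 12 had values and 6 were tested, with Sorcs2 called higher, 0 called lower and 3 at an unadjusted p under 0.05. The median log2 fold change was 0.33, against 0.06 over all genes tested.

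Sorcs2, a sortilin-family co-receptor of p75NTR, was at 99.5, 66.1 and 64.7 CPM in CAF libraries and at 12.6, 16.5 and 21.3 CPM in normal libraries (4.61-fold, adjusted p = 0.042 by edgeR). It did not pass in any fit that left out 1 library other than normal library 3, with adjusted p from 0.0764 to 0.223 (edgeR), nor with limma-voom (adjusted p = 0.0527) or a term for mice per library (adjusted p = 0.0709 by edgeR). Sort1, sortilin itself, ran the other way at 36.6, 23.9 and 23.0 CPM in CAF and 106, 113 and 25.0 CPM in normal libraries without passing (log2 fold change -1.58, adjusted p = 0.228 by edgeR). It passed without normal library 3 (log2 fold change -2.08, adjusted p = 0.0113 by edgeR), in a fit that called 1193 of 11888 genes tested. Ntf3, or neurotrophin-3, had 3, 35 and 73 counts in CAF libraries, or 4.39, 4.83 and 9.87 CPM, and 60, 10 and 60 counts in normal libraries, where its lowest level was 12.7 CPM. All CAF libraries were below all normal libraries, as 9.35% of genes tested were, and Ntf3 did not pass (log2 fold change -2.46, adjusted p = 0.144 by edgeR). Bdnf, brain-derived neurotrophic factor, had 1, 47 and 22 counts in CAF libraries and 0 in each normal library, below the filter.

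**Figure D5:**
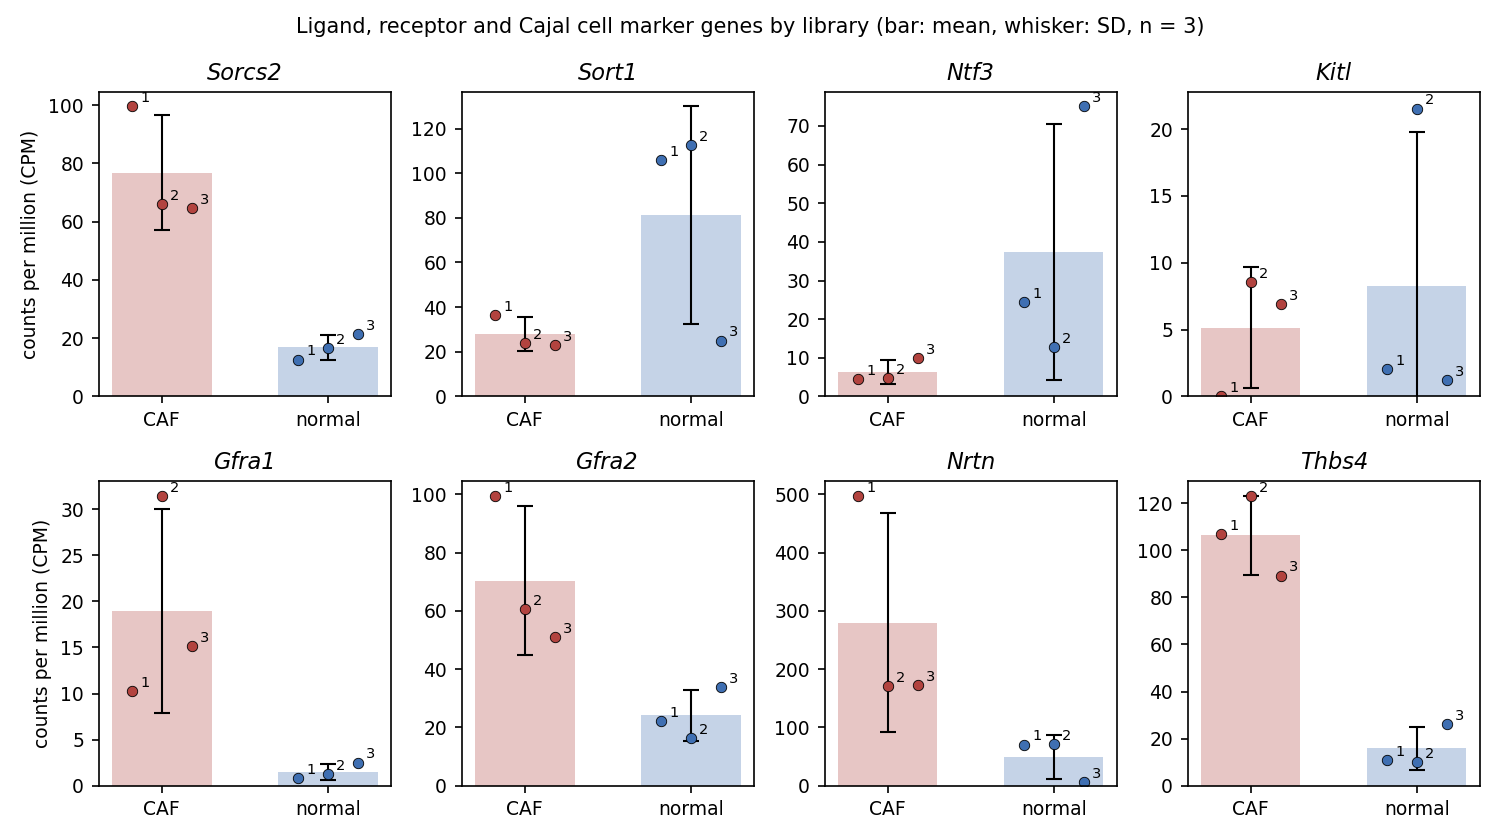
CPM (linear axis from 0) of 8 genes of ligands, receptors and Cajal cell markers in each library, CAF in red left of normal in blue, with bars for means and whiskers for SD (n = 3, cut off at 0). Sorcs2 and Thbs4 separate the groups with CAF higher, Ntf3 separates them with CAF lower, and Sort1 overlaps through normal library 3.

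Signals that guide glial development include neuregulin, endothelin-3 and the GDNF family, whose receptors are the GFRA proteins with RET. Of 15 genes of this list, 13 had values and 10 were tested, with 0 called by edgeR, 3 at an unadjusted p under 0.05, 3 called higher by DESeq2 and 0 by limma-voom. The median log2 fold change was 0.42, against 0.06 over all genes tested. The 3 were the receptors Gfra1 and Gfra2 and the ligand Nrtn, or neurturin, which binds GFRA2. Gfra1 was at 10.2, 31.5 and 15.1 CPM in CAF libraries and at 0.816, 1.27 and 2.50 CPM in normal libraries (log2 fold change 3.83, adjusted p = 0.058 by edgeR). Gfra2 was at 99.5, 60.6 and 51.0 CPM in CAF and 22.0, 16.5 and 33.8 CPM in normal libraries (log2 fold change 1.53, adjusted p = 0.12). Nrtn was at 497, 170 and 172 CPM in CAF and 70.6, 70.9 and 6.25 CPM in normal libraries (log2 fold change 2.48, adjusted p = 0.203). These 3 genes, shown because DESeq2 called them, had no overlap between the groups with CAF higher, as 10.6% of genes tested had. Without normal library 3, Gfra1 and Gfra2 passed (adjusted p = 0.0279 and 0.0456 by edgeR), in a fit that called 1193 of 11888 genes tested. Ret, the shared signalling receptor, had 0, 6 and 4 counts in CAF libraries and 0 in each normal library.

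The signalling genes around KIT showed no called change. Of 14 genes, 12 were tested and 0 were called by edgeR, DESeq2 or limma-voom, with 1 at an unadjusted p under 0.05 and a median log2 fold change of -0.16. Kitl, which encodes stem cell factor, had 0, 62 and 51 counts in CAF libraries 1, 2 and 3, or 0, 8.56 and 6.90 CPM. In normal libraries 1, 2 and 3 it had 5, 17 and 1 counts, or 2.04, 21.5 and 1.25 CPM, so the groups overlapped. The adaptor genes Grb2 and Shc1 and the phosphatase gene Ptpn11 did not pass, at 0.026, 0.62 and -0.097 on the log2 scale.

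The close relatives of Etv1 and the feedback genes of the MAPK pathway that the PEA3 factors serve were read more deeply than Etv1. All 12 were tested and 0 were called by edgeR, with 3 at an unadjusted p under 0.05, 1 (Spry4) called by DESeq2 and 0 by limma-voom, and a median log2 fold change of 0.06. Etv4 was at 165, 58.9 and 34.4 CPM in CAF libraries and at 31.4, 20.3 and 6.25 CPM in normal libraries (log2 fold change 2.06, adjusted p = 0.229 by edgeR). Etv5 was at 19.0, 14.2 and 15.7 CPM in CAF and 14.7, 21.5 and 12.5 CPM in normal libraries (log2 fold change -0.01). Spry4, a feedback inhibitor of receptor tyrosine kinases, was at 54.1, 50.6 and 33.0 CPM in CAF and 6.53, 7.60 and 21.3 CPM in normal libraries (2.01 on the log2 scale, adjusted p = 0.114 by edgeR). It passed without normal library 3 (2.64, adjusted p = 0.0149 by edgeR), in a fit that called 1193 of 11888 genes tested.

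Other members of the S100 and anoctamin families were tested beside S100b and Ano1. Of 10 tested S100 genes other than S100b, 0 were called by edgeR, 3 had an unadjusted p under 0.05, 3 were called by DESeq2 (2 higher and 1 lower in CAF) and 1 by limma-voom, and the median log2 fold change was 0.66 with a range of -2.92 to 1.93. S100a11 was at 369, 406 and 414 CPM in CAF libraries and 142, 141 and 150 CPM in normal libraries, without overlap and without passing (log2 fold change 1.46, adjusted p = 0.0576 by edgeR), and it passed with library totals alone (adjusted p = 0.0457 by edgeR). Without normal library 3, edgeR called 3 of the S100 genes: S100a11 (adjusted p = 0.0199) and S100a4 (0.0127) higher and S100a14 (0.00423) lower in CAF. That fit called 1193 of 11888 genes tested. S100a6 overlapped between the groups, with 1879 to 2665 CPM in CAF and 873 to 2179 CPM in normal libraries. Of 5 tested anoctamins other than Ano1, 0 were called by edgeR or limma-voom and 2 had an unadjusted p under 0.05. Ano9 was at 74.6, 54.2 and 26.6 CPM in CAF libraries and at 17.5, 15.2 and 2.50 CPM in normal libraries without passing (adjusted p = 0.183 by edgeR), and Ano6, a lipid scramblase, had a log2 fold change of -0.30 with overlapping groups. DESeq2 called 1 anoctamin, Ano2, lower in CAF: it had 0, 5 and 2 counts in CAF libraries and 9, 2 and 29 counts in normal libraries, and was below the edgeR filter.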

How the data were processed

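Libraries were made by MARS-seq, which counts the 3′ ends of polyadenylated RNA, per the labels' protocols. Cutadapt, STAR, HTSeq, DESeq2 and the build mm10 are named in the submitters' processing notes. The sources used here do not give their versions, the use of strand or the handling of molecular identifiers. Of the deposited values, the raw counts were tested. Per the file headers the table also holds a normalized signal and a regularized log2 value, not used here, and the authors' log2 fold change, p-value and adjusted p-value.

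The tool was edgeR 4.0.16, run in R 4.3.3 (filterByExpr, trimmed mean of M-values, quasi-likelihood F test of CAF against normal, Benjamini-Hochberg over 10148 genes, threshold 0.05). Standard errors were derived from the F statistic. DESeq2 1.42.0 and limma-voom (limma 3.58.1) were among the alternatives. Some genes of 2 lists are not reported here and were left out of those lists' counts and sums. S100pbp, which is no S100 family gene, was taken off the S100 list. Members and lists were chosen with earlier results of these data known. The text describes all members, called list genes (up to 4) and the 3 genes of most similar pattern. Of the 3 genes of highest level on lists without a call, it describes only some. Those left out include Phlda1, Cic, Sox9, Ano10, S100a10 and S100a9, none of them called by edgeR. Their log2 fold changes were 0.053, -0.23, 0.77, 0.10, 0.46 and 1.30. Other genes described, such as Lix1, Slc12a2, Gucy1b1, Actg2, Esrp1, Mcpt2, Ptprc, Bdnf, Ntf3, Sort1, Ret, Gfra1, Kitl, Etv5, Spry4, S100a4, S100a11 and Ano2, were chosen after their values were seen.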

Additional observations from a re-analysis of the deposited data

How the results depend on the processing

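As reported, 1 member was called. The count was 2 with DESeq2, with library totals alone and with a term for mice per library, 0 with limma-voom, and 0 to 1 with 1 library left out. The number called over all genes moved too: it was 935 of 14228 with DESeq2. Of 10148 genes tested, 162 were called with library totals alone, 81 with the term for mice and 65 with limma-voom, against 112 as reported. The log2 fold change of S100b was 4.88 with limma-voom (adjusted p = 0.0659), 4.20 with normal libraries 1 and 2 left out (adjusted p = 0.324) and 4.39 to 5.57 with 1 library left out. With 1 normal library, that library is assumed to vary like the CAF libraries. Ngfr passed with DESeq2 (3.93, adjusted p = 0.000127), library totals alone (4.27, adjusted p = 0.0479) and a term for mice per library (4.35, adjusted p = 0.0429), and was 2.97 to 4.41 with 1 library left out. Ano1 ranged from -0.022 to 0.93 with 1 library left out, the sign turning without normal library 3 (-0.022), and was 1.37 with a term for mice per library and 3.11 with normal libraries 1 and 2 left out. Kit ranged from -1.40 to -0.40 with 1 library left out, was -0.13 with a term for mice per library (a fold of 0.916 against 0.564 as reported) and -0.16 with limma-voom, was below the filter without normal library 1, and has no fold against normal library 3 alone, where it had 0 counts. Etv1, tested only without the filter and by DESeq2, had 1.66 (adjusted p = 0.47) and 1.65 (no adjusted p given). Over all genes, edgeR called 112 as reported, 4 without CAF library 2, 29 without CAF library 3 and 49 without CAF library 1. It called 0 without normal library 1, 6 without normal library 2 and 1193 of 11888 tested without normal library 3. DESeq2 called 935 and limma-voom 65. Thbs4, Sorcs2 and Myh11 were not called with normal libraries 1 and 2 left out. Library totals alone moved the median of all genes to 0.40. The cause of these changes was not tested. No paired analysis was possible because the labels number no pairs across the groups.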
